A study of Mus musculus with 30 samples.

Results

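RNA sequencing of mouse embryonic stem cells (ESC) that lack Sp3 was set directly against that of ESC whose Sp1 has lost its DNA-binding domain, with no wild type sample in the comparison. The comparison rests on 4 of the 30 samples of the series, 2 per genotype, chosen by their labels alone (Sp3KO and Sp1_deltaDBD, cell type ESC). All 14685 genes of the deposited table entered it, of which 14268 passed a filter on low values and were tested. Both are E14 ESC, a widely used male mouse line, and both were kept undifferentiated in the same medium with serum and leukaemia inhibitory factor on a feeder layer of primary mouse embryonic fibroblasts, with no treatment that differs between them. The Sp1ΔDBD/ΔDBD cells carry a truncated Sp1 protein in which the zinc fingers are missing, and are described as hypomorphic, whereas the Sp3-/- cells are a complete knockout. How many clones stand behind each genotype is not given in the sources used here, so a difference between the mutations and a difference between the cell lines cannot be told apart. Because no wild type was used, a gene that is higher in Sp3-/- cells can equally be described as lower in Sp1ΔDBD/ΔDBD cells.

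Sp1 and Sp3 are zinc finger transcription factors that are made in nearly every cell type and bind the same letters, the GC box (GGGCGG), in promoters within CpG islands and also at distal sites. They differ in the regions that recruit other proteins: Sp1 is known mainly as an activator, while Sp3 can activate or, when modified by SUMO, repress. Mouse embryos without functional Sp1 die early in gestation, and those without Sp3 die at birth. Undifferentiated ESC survive the loss of either factor, which makes the ESC stage the point at which the effects of the mutations can be set side by side before differentiation into blood begins.

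Values were FPKM (fragments counted per gene, scaled to transcript length and library size), quantile normalised by the authors over all samples, so each sample holds nearly the same set of values (median 7.19 FPKM). Log2 fold changes are differences between the mean log2(FPKM + 0.1) of Sp3-/- and of Sp1ΔDBD/ΔDBD ESC, which understates the change of genes at low levels, and are given with their standard error (SE). A gene was called when its adjusted p from limma was under 0.05, and only called genes are described as changed. The number of reads behind a FPKM value is unknown, so no counting error could be given, and the spread between the 2 samples of a group is the measure of error. For the SE and the test this spread was pooled over the 10 mutant groups of 5 populations. An SE can therefore be smaller or larger than the spread in ESC alone. Within ESC the spread was unequal: over 10028 genes the median SD of log2 values was 0.165 between the Sp1ΔDBD/ΔDBD samples and 0.0526 between the Sp3-/- samples.

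All 4 samples had the profile of ESC. The summed FPKM of 9 ESC markers (among them Pou5f1, Sox2 and Nanog) was 2311 and 2171 in the Sp1ΔDBD/ΔDBD samples and 2608 and 2553 in the Sp3-/- samples. Mesoderm markers were near 0, with a sum of 1.61 to 4.28 over the 5 of 6 that were in the table. The cells were taken off feeders for some passages before differentiation, and whether this was done before the ESC samples were collected is not given in the sources used here. Fibroblast markers summed to 15.7 and 23.5 in Sp1ΔDBD/ΔDBD and to 5.92 and 15.2 in Sp3-/- samples over 8 of 10 markers in the table, clearly lower in Sp3-/- replicate 1 and close to the lower Sp1ΔDBD/ΔDBD sample in replicate 2. The highest single fibroblast value was that of Col1a2, 7.34 FPKM in Sp1ΔDBD/ΔDBD replicate 2. Postn was at 0.595 and 0.584 against 0.0342 and 0.0778 FPKM, while Twist1 went the other way, 0 and 0.262 against 0.743 and 0.620 FPKM. Primitive endoderm markers (7 of 8) summed to 17.2 and 16.2 against 11.5 and 11.7 FPKM, most of it Lama1 (14.8 and 14.1 against 10.2 and 10.2 FPKM).

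Of the 14268 genes tested, 567 were higher in Sp3-/- than in Sp1ΔDBD/ΔDBD ESC (3.97%) and 731 were lower (5.12%). A gene was tested if it passed the filter in any of the 20 fitted samples, and 12086 genes passed it in the 4 ESC samples. For 333 of the called genes the mean was not above 3 FPKM in the higher genotype. The median log2 fold change over all genes was 0.00, and that of called genes was 0.98 in size. By the fold change rule of the study, a ratio of group means above 2, applied here to genes whose higher group averaged more than 3 FPKM and without a test, 284 genes were higher (2.88%) and 280 lower (2.84%). Of these 564 genes, 344 (61.0%) were also called by limma in the same direction. In 57.9% of tested genes both Sp3-/- samples lay beyond both Sp1ΔDBD/ΔDBD samples, so a lack of overlap is not by itself a finding with 2 samples per genotype. It held for every called gene. The plot of gene levels in both genotypes shows that most genes lay close to the diagonal, with the called genes on either side at all levels of expression.

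**Figure D1:**
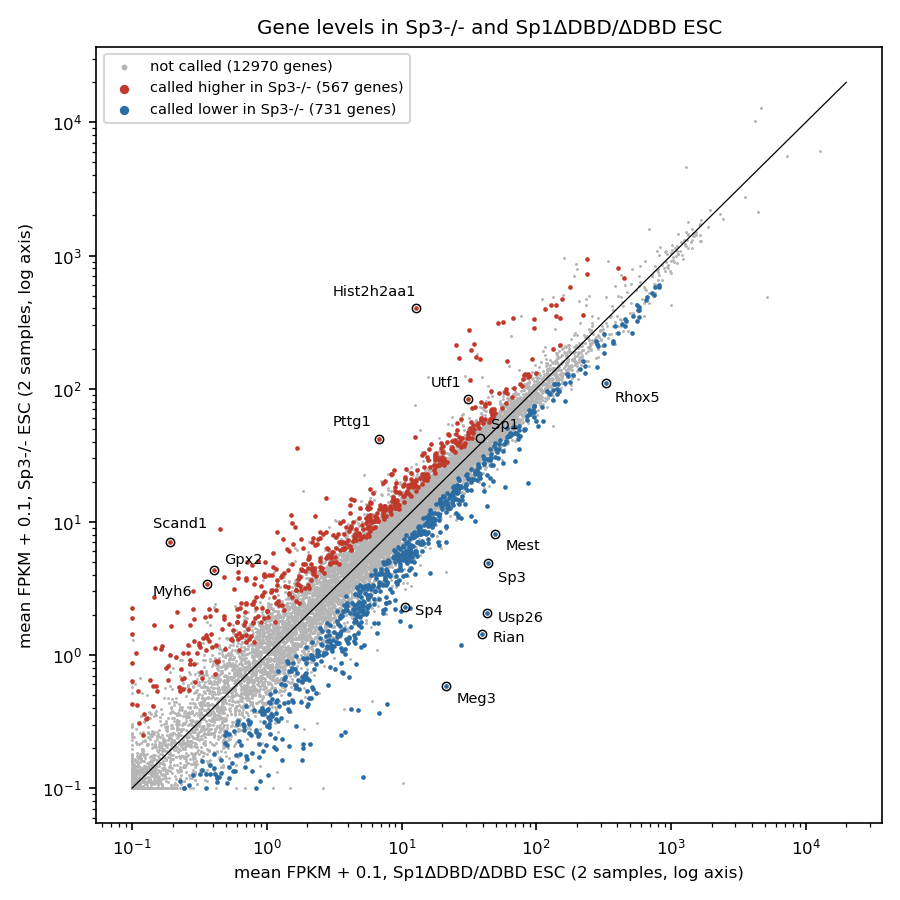
Mean FPKM + 0.1 of each tested gene in Sp1ΔDBD/ΔDBD ESC (horizontal, log axis) and in Sp3-/- ESC (vertical, log axis), each over 2 samples. Red points are the 567 genes called higher in Sp3-/- cells, blue points the 731 called lower, grey points the rest, and the line marks equal levels. Meg3, Rian, Usp26 and Sp3 lie far below the line, and Hist2h2aa1 and Scand1 far above it.

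The Sp family was examined first, since it holds both mutated genes. Their promoters are shown because each contains the GC box that the family binds. The 250 bases before the most upstream RefSeq start are printed 5′ to 3′ on the strand of the gene, with GGGCGG or its complement CCGCCC in capitals. The promoter of Sp3 (build GRCm38.p6, chr2:72980447-72980696, minus strand) held 2 GC boxes, that of Sp4 (chr12:118301441-118301690, minus strand) held 4, and that of Sp1 (chr15:102406066-102406315, plus strand) held 4.
Sp3: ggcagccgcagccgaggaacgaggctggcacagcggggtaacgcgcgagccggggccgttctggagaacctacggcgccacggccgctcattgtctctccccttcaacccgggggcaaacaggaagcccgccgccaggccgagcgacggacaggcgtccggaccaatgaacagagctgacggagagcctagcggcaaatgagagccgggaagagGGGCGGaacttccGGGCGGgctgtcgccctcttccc
Sp4: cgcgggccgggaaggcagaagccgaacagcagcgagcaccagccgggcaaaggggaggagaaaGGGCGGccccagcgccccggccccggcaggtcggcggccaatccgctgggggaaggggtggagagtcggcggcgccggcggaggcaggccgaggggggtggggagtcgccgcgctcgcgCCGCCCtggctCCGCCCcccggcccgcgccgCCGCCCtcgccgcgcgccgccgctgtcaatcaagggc
Sp1: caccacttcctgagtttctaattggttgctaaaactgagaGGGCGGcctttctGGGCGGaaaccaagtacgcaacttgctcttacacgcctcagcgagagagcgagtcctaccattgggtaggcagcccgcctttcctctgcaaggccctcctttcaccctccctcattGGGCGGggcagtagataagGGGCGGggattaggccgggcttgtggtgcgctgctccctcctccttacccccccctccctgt

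Sp3, on chr2:72936427-72980446 (GENCODE M21, GRCm38), checks the labels. It measured 37.5 and 49.3 FPKM in Sp1ΔDBD/ΔDBD ESC and 4.47 and 5.08 FPKM in Sp3-/- ESC. Both Sp3-/- samples were far below the Sp1ΔDBD/ΔDBD samples, though not at 0. The means of 43.4 ± 8.34 and 4.77 ± 0.431 FPKM (SD, n = 2) differ 9.10-fold, with a log2 fold change of -3.15 (SE 0.160, limma adjusted p = 2.95e-07). Sp3os on the opposite strand and Gm11084 overlap the gene, and since no strand setting is stated for the quantification, their reads cannot be separated from those of Sp3.

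Sp1 itself, on chr15:102406143-102436404, was not called. It measured 36.0 and 40.5 FPKM in Sp1ΔDBD/ΔDBD cells and 42.6 and 42.9 FPKM in Sp3-/- cells, with a log2 fold change of 0.16 (SE 0.179, limma adjusted p = 0.662). A value per gene does not show the missing exons of the mutant allele, so it does not check the Sp1ΔDBD/ΔDBD label. Once the trends with GC content and length were removed, the log2 fold change of Sp1 was 0.42 (limma adjusted p = 0.0299), the only one of 15 alternative settings under which it was called.

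Sp4, the paralogue of Sp1 and Sp3 best known from the nervous system, was the other member that changed. Its levels were 8.67 and 12.4 FPKM in Sp1ΔDBD/ΔDBD cells and 2.05 and 2.32 FPKM in Sp3-/- cells. The samples of the genotypes did not overlap, as in 57.9% of tested genes. The log2 fold change was -2.20 (SE 0.236, limma adjusted p = 0.000180), a 4.82-fold difference in means. Sp2, which has a different binding preference, was at 6.68 and 7.54 against 10.9 and 11.2 FPKM, a log2 fold change of 0.63 that did not pass the test (limma adjusted p = 0.107). Sp5 and Sp8 stayed at or below 0.311 FPKM in all 4 samples, and Sp6 was listed at 0. In all, 2 of the 7 tested Sp factors were lower in Sp3-/- cells (28.6%, against 5.12% of all genes) and none was higher by limma (1 at an unadjusted p under 0.05). Sp3 is 1 of the 2, and its fall was set by the knockout, so the share says little about the family. Among the related Krüppel-like factors, which bind similar GC-rich and CACCC sequences, none of 16 was called by limma. Over all genes 3.97% were called higher and 5.12% lower. At an unadjusted p under 0.05 by limma, 2 of the 16 were higher and 1 lower, and their median log2 fold change was 0.08. The largest difference was that of Klf4, one of the reprogramming factors, with 9.66 and 9.55 against 20 and 18.0 FPKM (log2 fold change 0.97, limma adjusted p = 0.0527).

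**Figure D2:**
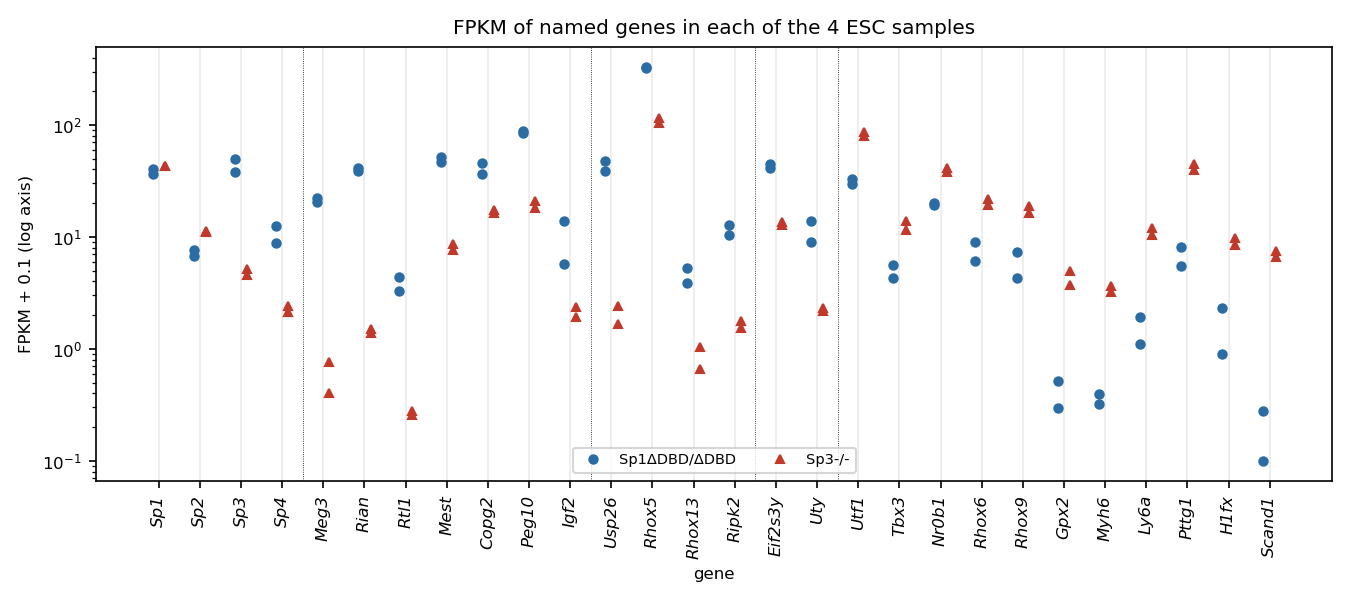
FPKM + 0.1 (log axis) of 28 genes in each of the 4 ESC samples, with blue circles for the 2 Sp1ΔDBD/ΔDBD samples and red triangles for the 2 Sp3-/- samples. From left to right the dotted lines part the Sp factors, imprinted genes, other genes lower in Sp3-/- cells, Y-linked genes and genes higher in Sp3-/- cells. For each of these genes the samples of the genotypes do not overlap, as was the case for 57.9% of tested genes. Sp1 was at 36.0 and 40.5 against 42.6 and 42.9 FPKM.

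The largest falls were in imprinted genes, which are expressed from the maternal or the paternal copy only. Of 42 tested imprinted genes, 14 were lower in Sp3-/- ESC (33.3%, against 5.12% of all genes) and 2 were higher (4.76%, near the 3.97% of all genes). Their median log2 fold change was -0.47. The list was chosen with earlier results of these data known, so these shares are a description. Without 1 of the samples the number lower was 7 to 12.

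The Dlk1-Dio3 domain on chromosome 12 held the steepest of them. Meg3, a maternally expressed long non-coding RNA on chr12:109541001-109571726, measured 22.2 and 20.6 FPKM in Sp1ΔDBD/ΔDBD cells and 0.306 and 0.659 FPKM in Sp3-/- cells. It was almost absent from both Sp3-/- samples, with a log2 fold change of -5.28 (SE 0.743, limma adjusted p = 0.00104), a 44.4-fold difference in means. Rian, the next maternally expressed transcript of the domain (chr12:109603940-109661716), which hosts a cluster of small nucleolar RNAs, was at 38.3 and 40.8 against 1.29 and 1.39 FPKM (log2 fold change -4.78, SE 0.816, limma adjusted p = 0.00330). The paternally expressed Rtl1, a gene derived from a retrotransposon and needed in the placenta, fell too, from 3.19 and 4.28 to 0.157 and 0.176 FPKM (log2 fold change -3.83, SE 0.690, limma adjusted p = 0.00449). Rtl1 lies on the minus strand, between Meg3 and Rian on the plus strand. With no strand setting stated, the strand of the reads counted for Rtl1 is not known. Dlk1, the paternally expressed gene at the end of the domain, was at or below 0.305 FPKM in all 4 samples. Among small RNA genes, the largest falls were those of AF357359, AF357426 and AF357425, with log2 fold changes of -5.87, -5.20 and -4.80. AF357425 lies inside Rian (chr12:109636012-109636084) on the same strand, so that its reads and those of Rian cannot be told apart, and the annotation used held no position for AF357359 and AF357426.

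On chromosome 6, 4 imprinted genes were lower. Mest, a paternally expressed gene of the hydrolase family (chr6:30723547-30748465), measured 46.9 and 52.0 FPKM in Sp1ΔDBD/ΔDBD cells and 7.52 and 8.60 FPKM in Sp3-/- cells (log2 fold change -2.60, SE 0.281, limma adjusted p = 0.000180). Copg2, a coat protein subunit that overlaps Mest on the opposite strand, was at 45.2 and 36.3 against 17.2 and 16.3 FPKM (log2 fold change -1.27, limma adjusted p = 0.000447), and the reads they share cannot be told apart. Peg10, another retrotransposon-derived gene, fell from 87.4 and 85.0 to 20.8 and 17.9 FPKM (log2 fold change -2.15, SE 0.306, limma adjusted p = 0.00110), and its neighbour Sgce by 1.46 on the log2 scale. None of these 4 genes overlapped between the genotypes, which held for every called gene and for 57.9% of tested genes. Imprinted genes of other chromosomes were also among the called falls. Igf2, a fetal growth factor, was at 13.9 and 5.64 against 1.84 and 2.26 FPKM (log2 fold change -2.07, limma adjusted p = 0.0148), and Igf2r, the receptor that clears it, at 47.2 and 32.4 against 19.5 and 18.8 FPKM (log2 fold change -1.03, limma adjusted p = 0.0171). Grb10, Plagl1, Peg3, Zim2 and Cd81 were the remaining called falls, between -2.76 and -0.46. Others were not called: Snrpn, H19, Cdkn1c and Kcnq1ot1 had log2 fold changes between -0.40 and 0.07 and adjusted p values of 0.776 or more by limma, and Phlda2, a growth-restricting gene, was at 24.5 and 23.8 against 44.4 and 39.4 FPKM (log2 fold change 0.79, limma adjusted p = 0.350). The 2 rises were those of Sfmbt2, a Polycomb-associated gene (17.5 and 25.7 against 40 and 39.7 FPKM, log2 fold change 0.91, limma adjusted p = 0.0429), and Nnat, which lies within Blcap on the opposite strand (log2 fold change 1.21, limma adjusted p = 0.0496), and neither was called once Sp1ΔDBD/ΔDBD replicate 1 or either of the Sp3-/- samples was left out.

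Some germline genes fell as well, several of them on the X chromosome. Of 27 tested members, 8 were lower in Sp3-/- ESC (29.6%, against 5.12% of all genes), 2 were higher (7.41%, against 3.97%) and 17 were not called, with a median log2 fold change of -1.01. Usp26, an X-linked ubiquitin protease of the testis (chrX:51753959-51801233), had the clearest fall, from 38.8 and 47.7 FPKM to 2.31 and 1.58 FPKM (log2 fold change -4.42, SE 0.297, limma adjusted p = 3.99e-06). Both Sp3-/- samples retained a low level of it. Rhox5, an X-linked homeobox gene and the most abundant member of the list, was at 325 and 331 against 116 and 103 FPKM (log2 fold change -1.58, SE 0.244, limma adjusted p = 0.00176). Other members of the same homeobox cluster went the opposite way: Rhox6 was at 8.88 and 5.99 against 21.6 and 19 FPKM (log2 fold change 1.46, limma adjusted p = 0.00595) and Rhox9 at 7.24 and 4.23 against 18.7 and 16.3 FPKM (log2 fold change 1.64, limma adjusted p = 0.00449). Rhox13, also of that cluster, was lower, with 5.13 and 3.80 against 0.563 and 0.939 FPKM (log2 fold change -2.44, limma adjusted p = 0.00731). The remaining called falls were those of Taf7l, Tdrd7, Tdrd1, Hormad1 and the near-identical pair Xlr3a and Xlr3b, whose reads may have been shared between the copies. Ddx4, Dazl and Piwil2 were also at lower levels in both Sp3-/- samples, with log2 fold changes of -1.0 to -1.1, and did not pass the test. Without Sp3-/- replicate 1, 3 members were called, all lower, and without Sp3-/- replicate 2, 6 were, 4 of them lower.

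By chromosome, the X stood out among those with more than 20 genes over 3 FPKM. Of 319 such X-linked genes, 44 were lower in Sp3-/- cells (13.8%) and 9 higher (2.82%), with a median log2 fold change of -0.18. On the autosomes the medians lay between -0.07 and 0.06, and the share of genes lower between 2.79% and 9.60%, highest on chromosome 12. The X-linked falls included Fndc3c1, a fibronectin type domain gene, at 5.04 and 2.90 against 0.477 and 0.685 FPKM (log2 fold change -2.54, SE 0.208, limma adjusted p = 2e-05). All 5 tested Y-linked genes had lower levels in Sp3-/- cells, and 3 were called. Eif2s3y, the Y-linked copy of a translation initiation factor subunit, was at 41.4 and 44.8 against 13.5 and 12.7 FPKM (log2 fold change -1.71, SE 0.119, limma adjusted p = 3.99e-06), Uty at 8.82 and 13.9 against 2.07 and 2.21 FPKM (log2 fold change -2.32, limma adjusted p = 0.000219) and Ddx3y at 5.51 and 7.21 against 4.04 and 3.28 FPKM (log2 fold change -0.78, limma adjusted p = 0.0284). None of the 3 overlapped between the genotypes, which held for every called gene. Eif2s3y and Uty were called under each of the 15 alternatives, Ddx3y under 8 of them. Whether the number of sex chromosomes per cell differs between the lines was not tested.

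Promoters were then searched for the GC box, since it is the sequence both factors bind and was not used to choose the genes. The search covered the 250 bases before the most upstream RefSeq start of 11241 tested genes and counted GGGCGG on both strands, overlapping matches included. Of all these promoters, 58.2% held at least 1 GC box and 32.4% held 2 or more. Among genes called lower in Sp3-/- cells the shares were 67.5% (394 of 584) and 47.4%, and among genes called higher they were 57.0% (263 of 461) and 28.4%. Read the other way, the share of genes over 3 FPKM called lower was 4.20% with no GC box, 4.30% with 1, 6.71% with 2 and 9.35% with 3 or more, while the share called higher was 5.21%, 4.76%, 3.32% and 3.48%. For comparison, CCAAT (the NF-Y box, searched on both strands, which can share letters with a GC box) was in 37.2% of all promoters, 41.3% of those of genes called lower and 35.6% of those of genes called higher. The promoters of genes called lower were also richer in G and C as a whole, with a median of 62.4% against 59.6% for all. These shares are descriptions, and the presence of the letters does not show binding.

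The individual promoters ranged widely, and 5 are shown to make that visible, printed as above. Fndc3c1 (chrX:106485230-106485479, minus strand) held 4 GC boxes and Utf1, a gene higher in Sp3-/- cells, also held 4 (chr7:139943606-139943855, plus strand), and in both promoters some boxes overlap. Mest (chr6:30733256-30733505, plus strand) held 1. Meg3 (chr12:109540746-109540995, plus strand) and Usp26 (chrX:51801234-51801483, minus strand), both among the steepest falls, held none in these 250 bases.
Fndc3c1: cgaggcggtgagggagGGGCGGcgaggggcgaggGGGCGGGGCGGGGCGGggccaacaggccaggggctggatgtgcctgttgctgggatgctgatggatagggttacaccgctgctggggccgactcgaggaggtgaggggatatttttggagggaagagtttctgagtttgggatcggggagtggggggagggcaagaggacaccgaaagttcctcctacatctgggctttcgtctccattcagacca
Utf1: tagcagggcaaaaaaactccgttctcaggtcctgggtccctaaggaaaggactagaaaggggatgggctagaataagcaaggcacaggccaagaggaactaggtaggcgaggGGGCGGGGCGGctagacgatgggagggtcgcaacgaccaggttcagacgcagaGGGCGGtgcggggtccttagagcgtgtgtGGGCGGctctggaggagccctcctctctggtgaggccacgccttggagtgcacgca
Mest: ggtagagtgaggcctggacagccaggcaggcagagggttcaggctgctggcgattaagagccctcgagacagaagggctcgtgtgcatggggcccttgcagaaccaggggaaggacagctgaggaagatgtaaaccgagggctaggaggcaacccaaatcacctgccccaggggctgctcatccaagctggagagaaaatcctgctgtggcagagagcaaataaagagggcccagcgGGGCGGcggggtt
Meg3: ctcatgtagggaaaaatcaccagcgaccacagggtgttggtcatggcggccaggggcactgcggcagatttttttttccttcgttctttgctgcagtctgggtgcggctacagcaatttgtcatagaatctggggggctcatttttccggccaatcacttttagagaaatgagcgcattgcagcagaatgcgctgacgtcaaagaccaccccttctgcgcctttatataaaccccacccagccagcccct
Usp26: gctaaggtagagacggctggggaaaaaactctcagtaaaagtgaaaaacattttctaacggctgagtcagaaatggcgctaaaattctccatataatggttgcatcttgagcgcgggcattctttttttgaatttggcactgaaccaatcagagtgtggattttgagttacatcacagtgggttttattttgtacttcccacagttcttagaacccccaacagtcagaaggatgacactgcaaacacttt

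Among the other large falls, Ripk2, a kinase that signals downstream of NOD receptors, was at 12.7 and 10.4 against 1.43 and 1.69 FPKM (log2 fold change -2.81, SE 0.260, limma adjusted p = 5.78e-05). Serpina3m, a serine protease inhibitor, was at 3.82 and 3.13 against 0.253 and 0.0484 FPKM (log2 fold change -3.96, limma adjusted p = 8.02e-05), and it overlaps the related Serpina3k on the same strand. Acta1, skeletal muscle actin, and Myl3, a myosin light chain that overlaps Pth1r on the opposite strand, were lower by 3.43 and 3.35 on the log2 scale, but their Sp1ΔDBD/ΔDBD samples were far apart, at 7.07 and 2.24 FPKM and at 7.44 and 0.843 FPKM. Acta1 was not called without Sp1ΔDBD/ΔDBD replicate 1 (nor without Sp3-/- replicate 1), and Myl3 was not called without Sp3-/- replicate 2. Without Sp1ΔDBD/ΔDBD replicate 1 Myl3 no longer passed the filter and was not tested. Of 28 contractile genes 2 were lower and 2 higher (7.14% each way, near the 5.12% and 3.97% of all genes). The higher ones were Myh6, a cardiac myosin heavy chain, at 0.293 and 0.224 against 3.12 and 3.55 FPKM (log2 fold change 3.26, SE 0.512, limma adjusted p = 0.00198), and Des, desmin (log2 fold change 1.88, limma adjusted p = 0.0196).

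The largest rises among named protein-coding genes began with Scand1, a SCAN domain protein without zinc fingers, which was at 0.180 and 0 FPKM in Sp1ΔDBD/ΔDBD cells and at 7.33 and 6.46 FPKM in Sp3-/- cells (log2 fold change 5.38, SE 0.938, limma adjusted p = 0.00364). Gpx2, a glutathione peroxidase of epithelia, was at 0.198 and 0.412 against 4.87 and 3.61 FPKM (log2 fold change 3.46, SE 0.314, limma adjusted p = 5.28e-05). Both genes were close to 0 in the Sp1ΔDBD/ΔDBD samples and moderate in the Sp3-/- samples, and both overlap a gene on the opposite strand (Cnbd2 and Fntb) whose reads cannot be told apart from theirs. Crxos, a homeobox gene, was at 0.945 and 0.275 against 5.52 and 4.28 FPKM (log2 fold change 2.99, limma adjusted p = 0.000631), and Rps6ka4, a kinase that phosphorylates histone H3 and CREB, at 0.337 and 0.422 against 3.17 and 4.33 FPKM (log2 fold change 3.0, limma adjusted p = 0.00144). Crxos was not called with the 4 ESC samples alone. Ly6a, which encodes the Sca-1 surface antigen, was at 1.01 and 1.83 against 10.4 and 12 FPKM (log2 fold change 2.95, SE 0.762, limma adjusted p = 0.0284), a call that was lost without any 1 of the 4 samples. At a higher level of expression, Pttg1, the securin that holds back the separation of sister chromatids, rose from 7.96 and 5.41 to 39.1 and 44.5 FPKM (log2 fold change 2.65, SE 0.486, limma adjusted p = 0.00497). H1fx, a linker histone variant outside the histone clusters, was at 2.22 and 0.806 against 9.58 and 8.35 FPKM (log2 fold change 2.64, limma adjusted p = 0.00116). With the trends of GC content and length removed, the log2 fold change was 1.33 for H1fx and 4.28 for Scand1, and both were still called. Syce3, Pcsk1n (which overlaps Eras on the opposite strand), Jakmip1 and Arhgap45 completed the list, with log2 fold changes from 2.70 to 3.12, but each of these calls was lost when some single sample was left out. Syce3 and Arhgap45 were not called without Sp1ΔDBD/ΔDBD replicate 2 or either of the Sp3-/- samples, Pcsk1n without Sp1ΔDBD/ΔDBD replicate 1 or either of the Sp3-/- samples, and Jakmip1 without Sp3-/- replicate 1.

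Apart from a sub-cluster of the study given below, clustered histone genes, which make the replication-dependent histones, were the list with the most rises. Of 69 tested, 24 were higher in Sp3-/- ESC (34.8%, against 3.97% of all genes), none was lower by limma, also at an unadjusted p under 0.05 (49 were higher), and the median log2 fold change was 1.47. H2A genes accounted for 12 of the 24 (of 19 tested, median log2 fold change 2.39) and H3 genes for 9 (of 12, median 1.65), whereas 2 of 19 H2B genes (median 0.45), 1 of 13 H4 genes (median 1.99) and none of 6 H1 genes (median 0.49) were called by limma. The H4 genes thus had a higher median than the H3 genes with a single call, and their summed FPKM was 3139 and 1959 against 9066 and 8530.0. The summed FPKM of H2A genes was 887 and 561 in the Sp1ΔDBD/ΔDBD samples and 3589 and 3309 in the Sp3-/- samples. Hist1h3b, as an example of H3, was at 223 and 135 against 669 and 489 FPKM (log2 fold change 1.72, SE 0.394, limma adjusted p = 0.0161), and Hist1h2ao, an H2A gene, at 0.332 and 0.367 against 9.72 and 7.87 FPKM (log2 fold change 4.30, SE 0.732, limma adjusted p = 0.00325). Hist2h2aa1 had the largest fitted change of the group, with 1.27 and 23.9 against 417 and 389.6 FPKM, and its near-identical copy Hist2h2aa2 went the opposite way, from 1.48 and 18.7 to 0.0201 and 0 FPKM, so reads may have been divided between them. With the trends of GC content and length removed, 21 of the genes were called and the median was 1.0. The calls depended on single samples: 15 were called without Sp1ΔDBD/ΔDBD replicate 1, 2 without Sp1ΔDBD/ΔDBD replicate 2 and 1 without either of the Sp3-/- samples. A sub-cluster of 92 genes that the study drew from these same samples (its number 1.1) contains 18 clustered histone genes, and 34 of its genes were higher (37.0%), with 17 without Sp1ΔDBD/ΔDBD replicate 1, 12 without Sp1ΔDBD/ΔDBD replicate 2 and 7 without either of the Sp3-/- samples. A further sub-cluster (4.1) had 5 of 35 higher (14.3%). These sub-clusters were selected on these samples and are not independent evidence.

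**Figure D3:**
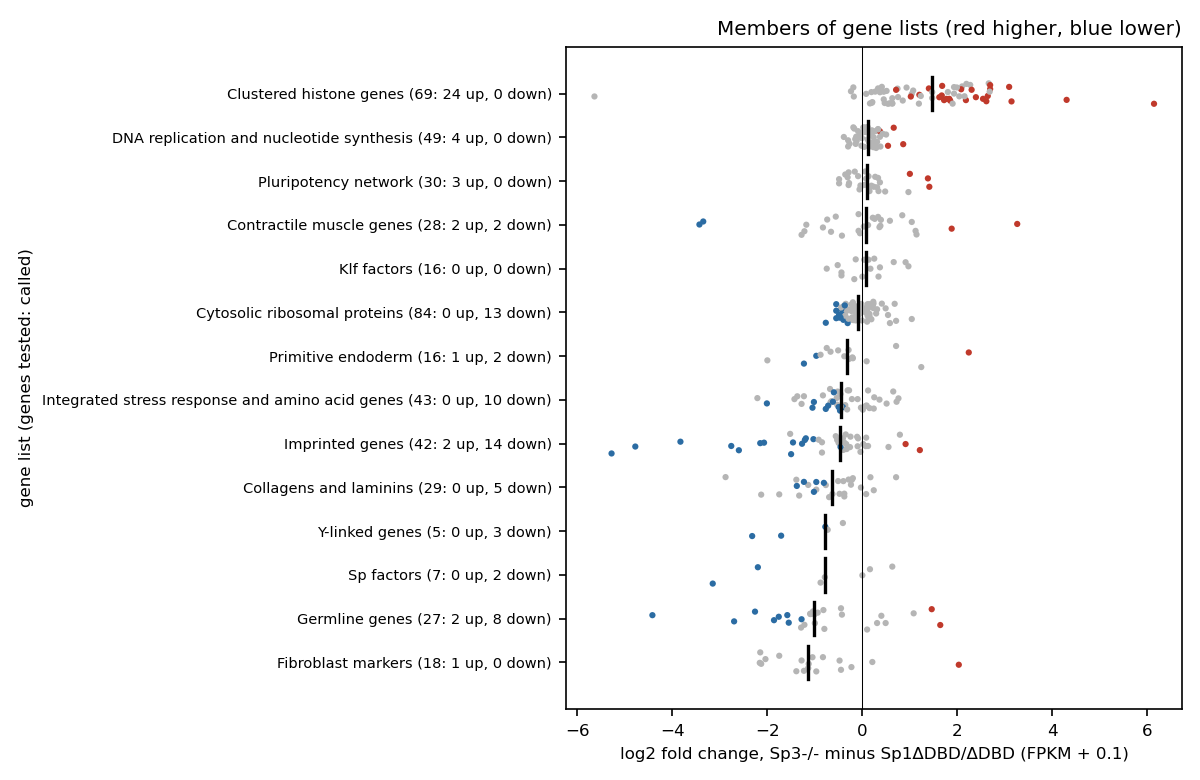
Log2 fold change (Sp3-/- minus Sp1ΔDBD/ΔDBD, horizontal axis) of each tested member of 14 gene lists, with red points called higher, blue points called lower, grey points not called, and a black bar at the median. The clustered histone genes lie mostly to the right of 0, but their member Hist2h2aa2, not called, is the point furthest to the left (-5.64). Some imprinted and germline genes also lie far to the left, down to Meg3 (-5.28) and Usp26 (-4.42).

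Of 30 tested genes of the pluripotency network, 3 were higher in Sp3-/- cells (10%, against 3.97% of all genes). None was lower by limma (against 5.12% of all genes). At an unadjusted p under 0.05 by limma, 4 were higher and 0 lower. The median log2 fold change was 0.10. Utf1, a chromatin-associated factor of undifferentiated cells, was at 33.1 and 29.3 against 86.1 and 79.9 FPKM (log2 fold change 1.41, SE 0.270, limma adjusted p = 0.00636), Tbx3, a T-box factor that supports self-renewal, at 4.17 and 5.52 against 13.9 and 11.5 FPKM (log2 fold change 1.38, limma adjusted p = 0.0198) and Nr0b1 (Dax1) at 19.1 and 20 against 37.6 and 40.8 FPKM (log2 fold change 1.0, limma adjusted p = 0.0243). The core factors had similar values in all samples. Pou5f1 was at 450.5 and 410.1 against 450.5 and 443 FPKM (log2 fold change 0.06, SE 0.841), Sox2 at 101 and 99.5 against 116 and 107 FPKM (0.15, SE 0.639) and Nanog at 132 and 135 against 127 and 112 FPKM (-0.16, SE 0.494). The SE of these genes includes their spread in the differentiated populations of the same fit, so the test was weak for them. Utf1 was not called with those trends removed (log2 fold change 0.71), and when 1 sample was left out 0 to 2 genes of the list were called. Of 14 formative and primed genes, Zic2 and Foxd3 were higher (14.3%, against 3.97% of all genes) and Cdh2 (N-cadherin) and Sall2 lower (14.3%, against 5.12%). Zic2 and Sall2 were not called without any 1 of the samples, and Foxd3 was called without Sp1ΔDBD/ΔDBD replicate 2 but lost its call without any of the other 3 samples. Cdh2 was called under each of the 15 alternatives and fell from 3.37 and 3.98 to 0.855 and 0.989 FPKM (log2 fold change -1.88, SE 0.154, limma adjusted p = 2e-05). Of 16 primitive endoderm genes, Gata4 was higher (6.25%, against 3.97% of all genes), but below 1 FPKM in all 4 samples. Col4a1 and Col4a2 were lower (12.5%, against 5.12% of all genes). Of 18 genes of the primitive streak and mesoderm, only Kdr was called, as lower (5.56%, near the 5.12% of all genes). Kdr was at 0.292 and 0.215 against 0.0316 and 0.0235 FPKM. Neither Gata4 nor Kdr was called with a pseudocount of 1.

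Of 29 collagen, laminin and other basement membrane genes, 5 were lower in Sp3-/- cells (17.2%, against 5.12% of all genes) and none higher by limma (9 lower and 0 higher at an unadjusted p under 0.05), with a median log2 fold change of -0.63. Fn1, fibronectin, was at 165 and 160.4 against 77.7 and 83.3 FPKM (log2 fold change -1.02, SE 0.253, limma adjusted p = 0.0238), and Hspg2, perlecan, at 40.2 and 31.8 against 18.8 and 21.9 FPKM (log2 fold change -0.81, limma adjusted p = 0.0278). Col4a1, Col4a2 and Col4a5 were the others. The summed FPKM of the 18 tested fibroblast genes was 89.2 and 93.9 in Sp1ΔDBD/ΔDBD samples and 27.2 and 58.8 in Sp3-/- samples, and their median log2 fold change was -1.14, with 16 of 18 negative, though Twist1 alone was called, and as higher. Twist1 stayed at or below 0.743 FPKM in all 4 samples and was not called with a pseudocount of 1. The part of fibroblast RNA in the matrix genes was not tested. In bulk samples a smaller number of such cells and less RNA per cell cannot be told apart. No matrix gene was called without Sp1ΔDBD/ΔDBD replicate 1 or without Sp3-/- replicate 1.

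Genes of the integrated stress response and of amino acid supply were lower in Sp3-/- cells in 10 of 43 cases (23.3%, against 5.12% of all genes), with none higher by limma (1 at an unadjusted p under 0.05) and a median log2 fold change of -0.46. The called genes were the glycine transporter Slc6a9, enzymes of amino acid metabolism and tRNA synthetases. Slc6a9 had the largest called fall, with 2.97 and 1.1 against 0.353 and 0.404 FPKM (log2 fold change -2.01, SE 0.392, limma adjusted p = 0.00708). Gpt2, alanine transaminase, was at 53.2 and 36.9 against 22.0 and 20.7 FPKM (log2 fold change -1.05, SE 0.207, limma adjusted p = 0.00738), Phgdh, the entry enzyme of serine synthesis, at 124 and 75.6 against 55.3 and 58.0 FPKM (log2 fold change -0.77, limma adjusted p = 0.0198) and Eprs, a glutamyl-prolyl tRNA synthetase, at 145 and 149 against 95.5 and 96.1 FPKM (log2 fold change -0.62, limma adjusted p = 0.00969). Among the transcription factors of the response, Ddit3 and Atf4 were high in Sp1ΔDBD/ΔDBD replicate 1 alone. Ddit3 was at 31.2 there and 7.67 in replicate 2, against 6.09 and 6.52 in Sp3-/- cells, and Atf4 at 82.7 and 44.2 against 47.9 and 46.1 FPKM. Neither of them was called, nor were Atf5 and Cebpb, with log2 fold changes of 0.76 and 0.72. Without Sp1ΔDBD/ΔDBD replicate 1, 1 gene of the list was lower and 2 were higher, while without replicate 2, 18 were lower. None was called by limma without Sp3-/- replicate 1, and 1 without Sp3-/- replicate 2.

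Transcript composition moved with the comparison. Among genes over 3 FPKM, the median log2 fold change rose with the GC content of the transcript, from -0.29 for 622 genes with 40% or less to 0.41 for 398 genes over 60%. The share of genes higher in Sp3-/- cells was 0.643% in the first class and 19.3% in the last, and the share lower was 11.9% and 1.51%. Over 9829 genes the Spearman correlation of the log2 fold change was 0.35 with GC content and -0.29 with transcript length. These points share the same 4 libraries and are not independent. The direction is opposite to that of the promoters, where the genes lower in Sp3-/- cells were the richer in G and C. After subtracting the smooth trends with GC content and length in each sample, 639 genes were higher and 802 lower, and 997 of the 1298 calls were shared. Whether the trends come from library preparation or from the cells was not tested. Utf1 (63.5% GC), Hist1h2ao (64.2%), Scand1 (68.4%) and H1fx (71.3%) lie at the upper end of this range, and Sp3 (40.1%), Sp4 (39.9%), Usp26 (40.7%) and Uty (35.8%) at the lower end.

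**Figure D4:**
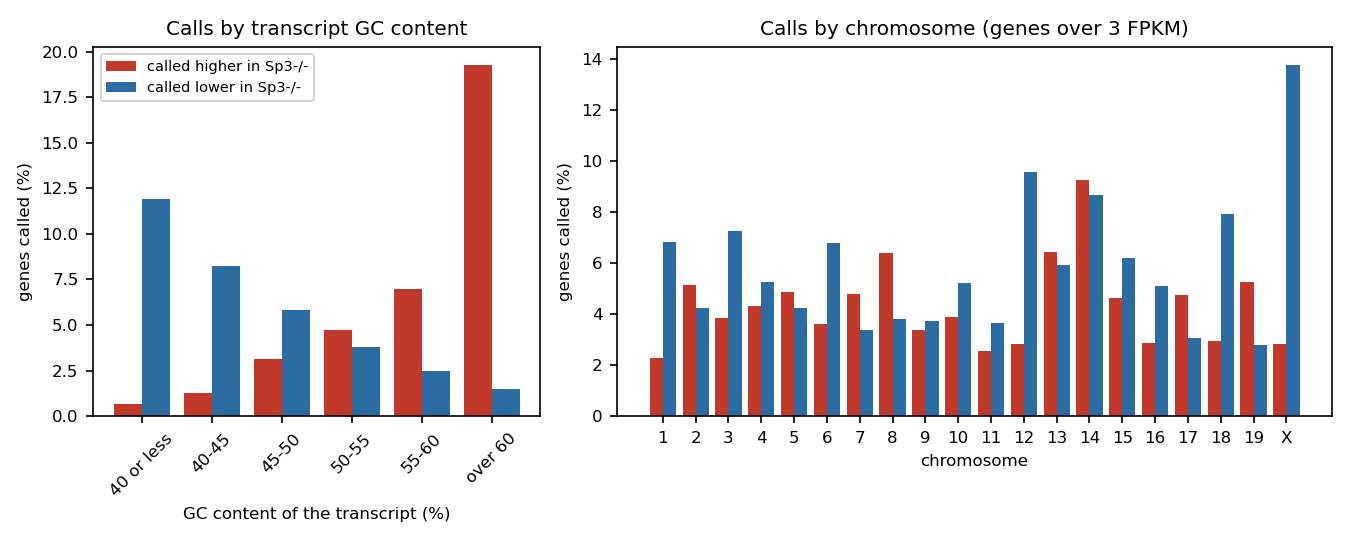
Share of genes over 3 FPKM called higher (red) and lower (blue) in Sp3-/- ESC, by GC content of the longest transcript (left, in %) and by chromosome (right). Calls shift from lower to higher with rising GC content, and the X chromosome has the largest share of genes called lower (13.8%).

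The same contrast was available in Flk1+ cells, the haemangioblast stage isolated from embryoid bodies of the same lines, and shows which differences are present after differentiation. There 973 of the 14268 tested genes were called. Both contrasts took their spread from the same fit, so the calls at the 2 stages are not independent. Of the 1298 genes called in ESC, 436 were also called in Flk1+ cells, all in the same direction, which is 33.6% of the ESC calls and 44.8% of the Flk1+ calls. No gene was called by limma in opposite directions (45 genes were at an unadjusted p under 0.05 in both stages with opposite signs), and by the fold change rule 3 genes were. Meg3, Rian, Mest, Usp26, Sp3 and Sp4 were lower at both stages, with log2 fold changes in Flk1+ cells of -4.91, -4.27, -3.45, -4.63, -2.62 and -1.36. Scand1, Pttg1 and Utf1 were higher at both stages, with 4.27, 1.91 and 1.94 in Flk1+ cells, though Utf1 did not exceed 0.600 FPKM there.

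The difference of the contrast between the stages, tested in the same fit, was called for 36 genes (0.252%), of which 28 were called in ESC, 13 of them higher and 15 lower. Cdh2 was lower in Sp3-/- ESC and was not called in Flk1+ cells, where it was at 83.5 and 63.3 against 91.9 and 86.8 FPKM (difference of -2.18, SE 0.218, limma adjusted p = 0.000828). Fndc3c1 was likewise at similar levels in Flk1+ cells, 19.6 and 20.4 against 17.5 and 16.4 FPKM (difference of -2.31, SE 0.294, limma adjusted p = 0.00447). Rhox5 went further in the same direction, with 32.8 and 22.4 against 2.50 and 1.76 FPKM in Flk1+ cells (difference of 2.05, limma adjusted p = 0.0323). Gpx2 and Crxos were listed at 0 in all 4 Flk1+ samples, so their difference between stages is that of genes not measured at the second stage. No difference between stages was called by limma with the replicate number as a block.

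**Figure D5:**
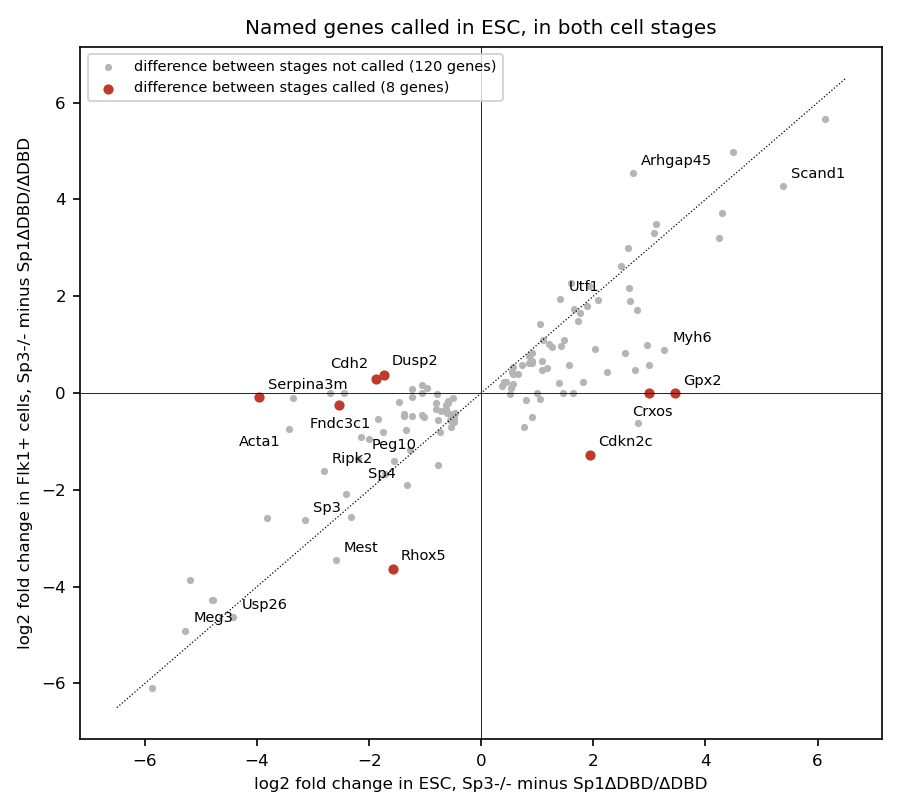
Log2 fold change (Sp3-/- minus Sp1ΔDBD/ΔDBD) in ESC (horizontal) and in Flk1+ cells (vertical) of the 128 named genes called in ESC, with 8 genes in red whose difference between the stages was called. The sign is the same at both stages for 108 genes, 85 of which changed less in Flk1+ cells and lie between the horizontal axis and the dotted line of equal change, while Cdh2, Fndc3c1, Serpina3m, Gpx2 and Crxos lie near 0 on the vertical axis. All of these genes were chosen by their values in ESC. That choice by itself favours smaller changes at the other stage, so the 85 do not show that differences shrink on differentiation.

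A further set of 10 genes, in part taken from the text of the study, was described by value. Zswim6, a zinc finger gene, was the only one of them called, with 5.73 and 5.48 against 3.07 and 3.35 FPKM (log2 fold change -0.79, SE 0.195, limma adjusted p = 0.0237), and it was not called without any 1 of the 4 samples. Crip1, a LIM protein, was at 27.3 and 17.2 against 52.1 and 55.6 FPKM, a log2 fold change of 1.31 with an SE of 1.1 (limma adjusted p = 0.534). Mdk, a secreted growth factor, was at 72.1 and 41.5 against 95.9 and 95.5 FPKM (log2 fold change 0.81, SE 0.359, limma adjusted p = 0.190). Id1 (1.17, SE 0.436) and Junb (0.98, SE 0.351) had higher levels in both Sp3-/- samples and adjusted p values of 0.115 and 0.102 by limma. The SE of Crip1, Mdk, Id1 and Junb includes their spread in the differentiated populations of the same fit. With the 4 ESC samples alone, Crip1 and Id1 were called, with or without the replicate number as a block. Mdk and Junb were called there only with the block, and Zswim6 in neither case. For Klf2, Stat6, Yod1, Ostm1 and Cd59a the log2 fold changes lay between -0.17 and 0.47, none of them called.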

How the data were processed

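Total RNA libraries (TruSeq Stranded, ribosomal RNA removed) were made from 2 biological replicates per genotype, sequenced as paired ends, trimmed, aligned to mm10 with HISAT2 2.1.0 and quantified with StringTie 1.3.3 (versions from the submitters' processing notes). The deposited values are FPKM per gene, which the authors kept where any sample exceeded 1 FPKM and then quantile normalised over 30 samples. At no rank did samples differ by more than 0.192 FPKM. FPKM values hold no read counts, so depth is unknown. No strand setting is stated. No column lacked a sample (0 columns left out), and the largest value was 12779 FPKM.

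Log2(FPKM + 0.1) was tested with limma 3.58.1 (R 4.3.3, with Python 3.11.15, numpy 2.4.6 and pandas 2.3.3 for the tables, eBayes with an intensity trend, two-sided, Benjamini-Hochberg adjustment over all 14268 genes above 1 FPKM in at least 1 fitted sample). The linear model held the 10 group means of the 20 mutant samples (5 populations, 2 genotypes), so that the spread was estimated over all of them. Wild type samples entered only an alternative. The contrasts were Sp3-/- minus Sp1ΔDBD/ΔDBD in ESC, the same in Flk1+ cells, and their difference. An exact permutation of 2 against 2 samples cannot go below p = 0.333. The study itself used a fold change above 2 without a test, repeated here on group means with 0.1 added. On simulated data for the ESC contrast over 14042 genes, a log2 change of 1 was recovered for 67% of the altered genes and a change of 2 for 97%, with 14 of 178 calls false. The simulated noise was normal, with the same SD per gene in every group, and only genes above 3 FPKM were altered. The real spread was unequal between the genotypes, and some called genes were at lower levels, so these rates are not error rates of the real calls.

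Symbols were matched to GENCODE M21 (14561 of 14685) for position, GC content and length of the longest transcript. Promoters came from RefSeq (GRCm38.p6), 1 per gene, with older symbols matched through RefSeq synonyms. Genes named in the text were Sp1 and Sp3, the 12 largest rises and falls among called genes that had a mean above 3 FPKM and no overlap (histone, small RNA and unnamed genes apart, 3 each way), up to 5 called members per list and direction by adjusted p, 2 by size where none was called, and a set of 10 further genes, in part named in the study. Further members (among the imprinted, germline, pluripotency, stress response and muscle genes, and the genes given as not called), Hist2h2aa2 and those behind the counts were chosen after their values were seen. The lists and tests were chosen with earlier results of these data known. Alternatives changed the pseudocount, filter, samples, trend, replicate block, centring and GC content correction.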

Additional observations from a re-analysis of the deposited data

Results flagged for a closer look

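The difference of the contrast (Sp3-/- minus Sp1ΔDBD/ΔDBD) between ESC and Flk1+ cells passed the test for 8 of the 128 named genes, and the values below are that difference, ESC minus Flk1+, on the log2 scale. Gpx2 had a difference of 3.46 (limma adjusted p = 0.00447) and Crxos of 2.99 (limma adjusted p = 0.0459), and both were listed at 0 in all 4 Flk1+ samples. Serpina3m had -3.87 (limma adjusted p = 0.00915), with Flk1+ values of 0 and 0.0129 against 0 and 0 FPKM. Fndc3c1 had -2.31 (limma adjusted p = 0.00447) and Cdh2 had -2.18 (limma adjusted p = 0.000828), and both were expressed in Flk1+ cells of either genotype. Rhox5 had 2.05 (limma adjusted p = 0.0323), since its fall was larger in Flk1+ cells (-3.63) than in ESC (-1.58). Dusp2, a phosphatase of MAP kinases, had -2.11 (limma adjusted p = 0.0410), from 0.552 and 0.438 against 0.0682 and 0.0868 FPKM in ESC and 18.3 and 9.43 against 19.6 and 14.6 FPKM in Flk1+ cells. Cdkn2c, an inhibitor of the kinases CDK4 and CDK6, had 3.22 (limma adjusted p = 0.0459), from 0 and 0.0176 against 0.360 and 0.277 FPKM in ESC and 1.5 and 0.505 against 0.368 and 0.254 FPKM in Flk1+ cells, where it was not called. None of the 8 differences was called by limma with the replicate number as a block.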

How the results depend on the processing

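Of the 1298 genes called in ESC, the count was 1516 with a pseudocount of 1, 1317 without the filter, 1212 above a mean of 3 FPKM, 1404 with all 30 samples, 1188 without the intensity trend and 1441 with the GC content and length correction. It was 606 with the 4 ESC samples alone, where 53.8% of calls were higher in place of 43.7%, and 328 to 960 with 1 sample left out (800 without Sp1ΔDBD/ΔDBD replicate 1, 328 without Sp3-/- replicate 1, 401 without Sp3-/- replicate 2). With the replicate block it was 859 (799 of them among the 1298), but same-numbered samples share only a number: the correlation of their deviations was -0.065 in ESC and 0.192 at most in any population. The fold change rule gave 1295 genes without a minimum mean, 284 when all 4 pairs of samples had to pass and 565 to 704 with 1 sample left out, against 564. The difference between stages was called for 151 genes with a pseudocount of 1, 80 without the trend, 0 with the replicate block (36 here) and 10 to 107 with 1 sample left out.

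Of the 128 named genes called, 29 were called under every alternative and 0 reversed. A change of sign was seen only in genes that were not called. With the GC content correction Klf2 was at -0.38 and Yod1 at 0.18. With 1 sample left out, Klf2 ranged from -0.07 to 0.32, Yod1 from -0.46 to 0.13 and Cd59a from -0.55 to 0.21 (0.18 without Sp1ΔDBD/ΔDBD replicate 2), and Ostm1 was at -0.09 without Sp1ΔDBD/ΔDBD replicate 2. The cause of these changes was not tested. Depth is unknown, so no limit from counting can be given for genes at low FPKM.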

Other observations

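Of 49 DNA replication and nucleotide synthesis genes, 4 were higher in Sp3-/- ESC (8.16%, against 3.97% of all genes) and none lower by limma (12 higher and 1 lower at an unadjusted p under 0.05), and 2 were called without Sp1ΔDBD/ΔDBD replicate 1 or either of the Sp3-/- samples. Tk1, thymidine kinase, was at 23.1 and 27.5 against 46.3 and 45.4 FPKM (log2 fold change 0.86, limma adjusted p = 0.00157), and Rrm2, the small subunit of ribonucleotide reductase, at 72.2 and 89.5 against 134 and 120.0 FPKM (log2 fold change 0.66, limma adjusted p = 0.00241). Among 29 mitosis genes Pttg1, Cdca8 and Cenpa were higher (10.3%, against 3.97% of all genes), with log2 fold changes of 2.65, 0.57 and 0.56. Pttg1 was called under each of the 15 alternatives. The call of Cdca8 was lost without Sp3-/- replicate 1, and that of Cenpa without any 1 of the 4 samples. Ezh2 and Phf19, both of Polycomb complex PRC2, were the called members of 33 Polycomb genes, with log2 fold changes of 0.53 and 1.04 (6.06% of the list, near the 3.97% of all genes). No Polycomb gene was called by limma without Sp1ΔDBD/ΔDBD replicate 1 or either of the Sp3-/- samples, and 5 were called with the GC content and length correction. Of 84 cytosolic ribosomal protein genes, 13 were lower (15.5%, against 5.12% of all genes), with log2 fold changes of -0.77 to -0.31, with a median over the list of -0.09. That count was 3 without Sp1ΔDBD/ΔDBD replicate 1, 0 by limma without Sp3-/- replicate 1 and 1 without Sp3-/- replicate 2. Rps3 was at 789 and 700.0 against 495 and 523 FPKM (log2 fold change -0.55, limma adjusted p = 0.00549). Many ribosomal protein genes have processed pseudogenes that can share their reads.

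Signalling and metabolic lists moved in single genes. Acss2, which makes acetyl-CoA from acetate, was at 12.3 and 7.11 against 1.47 and 1.92 FPKM (log2 fold change -2.41, limma adjusted p = 0.00392). Acaca and Sc5d were the other called falls of 38 genes of cholesterol and fatty acid synthesis (7.89% lower, against 5.12% of all genes). Both of these calls were lost without Sp1ΔDBD/ΔDBD replicate 2 or either of the Sp3-/- samples, and that of Sc5d also with the GC content and length correction. Ier2, an immediate early gene, was at 36.7 and 29.9 against 74.3 and 68.1 FPKM (log2 fold change 1.1, limma adjusted p = 0.00984), whereas Cyr61, a matricellular target of the YAP pathway, was at 21.6 and 15.5 against 6.22 and 7.77 FPKM (log2 fold change -1.38, limma adjusted p = 0.00350). Inhbb, an activin subunit, was higher (log2 fold change 1.82, limma adjusted p = 0.0179), and so was Socs1, a feedback inhibitor of JAK and STAT signalling (log2 fold change 1.92, limma adjusted p = 0.0445). Zeb2 was lower (log2 fold change -1.85, limma adjusted p = 0.000643) and Zeb1 higher (log2 fold change 0.76, limma adjusted p = 0.0423), both repressors of epithelial genes. The calls of Ier2, Inhbb, Socs1 and Zeb1 were each lost without either of the Sp3-/- samples and without 1 of the Sp1ΔDBD/ΔDBD samples, and those of Acss2 and Cyr61 without Sp3-/- replicate 1.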
